A study of Mus musculus with 12 samples.

Results

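The collagen genes of interscapular brown fat were followed across a deletion of Cdk7 and a short cold exposure. A gene was included when its GRCm38 symbol was Col, a number, the letter a and a number, and when it had at least 10 counts in 3 or more of the 12 libraries. Of 53379 gene IDs, 44 had such a symbol and 31 met the count rule. The 31 were 9 fibrillar collagens, 5 basement membrane collagens and 17 others. The 13 that fell short were Col2a1, Col4a6, Col6a4, Col8a2, Col9a1, Col9a2, Col10a1, Col17a1, Col19a1, Col22a1, Col24a1, Col25a1 and Col26a1.

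RNA was sequenced from brown fat pads of C57BL/6 mice aged 12 weeks, all taken at zeitgeber time 9. The mice were wild-type littermates (WT) and mice of the genotype written Cdk7 bKO in the labels (KO), where Cdk7 encodes the kinase of the CDK-activating complex. Mice of either genotype stayed at room temperature or spent 6 h in the cold with food, which gave 4 groups of 3 libraries. Each library was a pool of RNA from 2 mice, 250 ng from each, so that p-values measure the spread between pools and not between single mice. The driver of the deletion, the sex of the mice and the temperature of the cold are not given in the sources used here.

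Collagens are built from chains that carry a repeated glycine and wind around each other into a helix. Fibrillar collagens are trimmed outside the cell and pack into fibrils that bear tension, whereas type IV collagen forms the sheet of the basement membrane that wraps each brown adipocyte and each capillary. The remaining families decorate fibrils, form beaded filaments, anchor basement membranes or span the plasma membrane. Chains are hydroxylated on proline and lysine in the endoplasmic reticulum before the helix can hold at body temperature.

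Assigned gene counts per library ran from 27609717 to 36792555, and mitochondrially encoded transcripts took 31.1 to 42.5% of them. Levels below are CPM, read counts brought to a common library size after TMM scaling. Cdk7, the targeted gene, stood at 15.1 to 18.0 CPM in the 6 WT pools and at 4.35 to 5.77 CPM in the 6 KO pools. Scaling by library totals alone moved the median log2 fold change of all 15208 tested genes to 0.22 between genotypes at room temperature, 0.45 between genotypes in the cold, -0.23 for the cold response of WT and 0.24 for KO response minus WT response, so each change is given relative to the TMM scale. Summed skeletal muscle markers (15 genes) ranged from 39.6 to 1399 CPM and were highest in KO room temperature pool 6 and WT room temperature pool 2. The brown adipocyte markers Ucp1, Cidea and Plin1 were detected in all groups. Exon bases were shared with another annotated gene in 10 of the 31 collagen genes. For Col3a1, Col7a1 and Col20a1 the other gene lay on the same strand, and their values are uncertain to that extent. For Col4a1, Col4a2, Col4a3, Col5a1, Col6a6, Col9a3 and Col15a1 it lay only on the opposite strand. The reverse strand setting described under processing, if it was used, keeps those reads apart. Col4a1 and Col4a2 start head to head and share 22 bases.

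Type IV collagen made up most of the collagen RNA, and its share was the one that differed most between the groups. As a share of all assigned counts, the 31 genes summed to 0.131, 0.137 and 0.127% in the pools of WT at room temperature, 0.214, 0.265 and 0.250% in KO at room temperature, 0.255, 0.254 and 0.230% in WT in the cold and 0.323, 0.329 and 0.304% in KO in the cold. The WT pools at room temperature lay below all others, and the KO pools in the cold lay above all others. The 5 basement membrane genes took 0.070% ± 0.00404 of assigned counts in WT at room temperature (SD, n = 3 pools here and below), 0.153% ± 0.0213 in KO at room temperature, 0.178% ± 0.016 in WT in the cold and 0.229% ± 0.0149 in KO in the cold. The 9 fibrillar genes took 0.039% ± 0.00455, 0.054% ± 0.00226, 0.043% ± 0.00528 and 0.0535% ± 0.011 in the same order, and the 17 others 0.0227% ± 0.00163, 0.0356% ± 0.00365, 0.0256% ± 0.00144 and 0.0361% ± 0.0034. These shares use the library total, and on the TMM scale the excess of KO over WT in the cold was gone: the 31 genes summed to 2744 to 3176 CPM in WT and 2745 to 2872 CPM in KO. In bulk tissue, more cells of a type and more RNA per cell cannot be told apart.

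**Figure D1:**
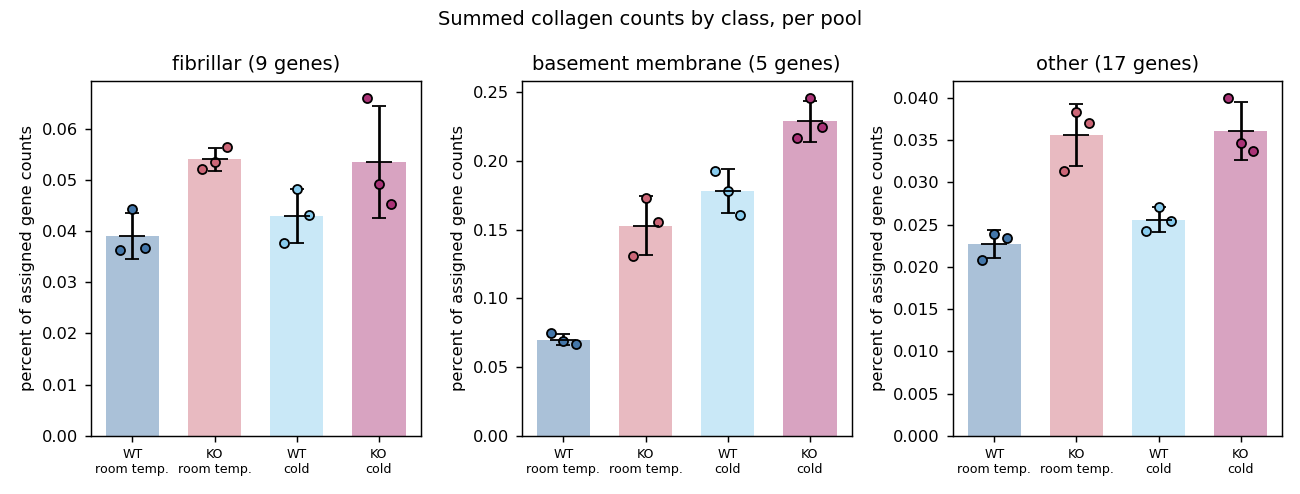
Summed counts of each collagen class as percent of all assigned gene counts (y axis) in the 4 groups (x axis), with points for pools of 2 mice, bars for the mean and whiskers for the SD of 3 pools. The basement membrane class goes from 0.070% in WT at room temperature to 0.229% in KO in the cold, an excess over WT in the cold that is absent on the TMM scale.

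Col4a1 and Col4a2 together held 49.7 to 56.2% of all collagen counts in WT at room temperature, 60.8 to 65.2% in KO at room temperature, 70.0 to 75.6% in WT in the cold and 66.9 to 74.4% in KO in the cold. Per length of exon, Col4a1 and Col4a2 were the 2 most abundant collagens in all 4 groups, and at room temperature they differed by less than their SD (52.7 ± 7.35 and 51.3 ± 10.1 CPM per kb in WT). Col3a1 came next in all 4 groups, with 13.7 ± 1.55 CPM per kb in WT at room temperature and 18.3 ± 3.76 in KO in the cold. Col27a1 followed at 10.1 ± 1.46 CPM per kb in WT at room temperature, within an SD of Col6a1 at 9.92 ± 0.0973, and stood at 4.84 ± 0.202 in KO in the cold, where 8 collagen genes were more abundant by this measure. The exons of Col27a1 sum to 13022 bases and its longest transcript has 7612, beside 4380 and 4100 for Col6a1. By the longest transcript Col27a1 would stand well above Col6a1 in WT at room temperature, so its rank depends on the length used. The lowest levels per length were those of Col11a1 and Col6a5, at 0.0196 and 0.0205 CPM per kb over all 12 libraries. The median over the 31 genes was taken in each pool and averaged over the pools of a group. It was 1.18 CPM per kb in WT at room temperature, 1.73 in KO at room temperature, 1.99 in WT in the cold and 2.34 in KO in the cold. With the longest transcript in place of all exons, the order of Col1a1 and Col1a2 turned: their ratio was 1.10 to 1.63 per kb of exon and 0.525 to 0.779 per kb of transcript, so neither is called the more abundant.

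At room temperature, collagen genes were more often higher than lower in KO. In edgeR's quasi-likelihood test, at a Benjamini-Hochberg adjusted p of 0.05 over all 15208 genes, 16 of the 31 were higher in KO and 5 lower. Of all genes tested, 19.3% were higher, 21% lower and 40.4% either. The median log2 fold change of the 31 was 0.55, beside 0.00 over all genes. All KO pools lay above all WT pools for 20 of the 31 (23.9% of all genes) and below for 5 (24.9%), so 25 did not overlap (48.8%). In the cold, 11 were higher and 4 lower in KO, beside 25.9%, 27.8% and 53.7% of all genes for higher, lower and either, so the number called was no greater than among all genes. Of these 11, Col6a5 and Col11a1 met the count rule through KO libraries alone and had to be high there, and the other 29 genes had 9 higher and 4 lower. The median was 0.19, beside 0.01, with all KO pools above WT for 11 (30.6% of all genes) and below for 5 (32.1%), 16 in all (62.7%). Col6a5 and Col11a1 were again among the 11, and Col11a1 was among the 20 at room temperature. The medians of both genotype comparisons include both genes, at 1.89 and 1.72 in the cold, so the median there is raised by them. Library totals alone turned the called split into 22 higher and 2 lower, with a median of 0.63 beside 0.45 over all genes. The 2 genotype comparisons share no library but come from the same fit and the same scaling. Higher in both were Col5a2, Col13a1, Col16a1, Col18a1, Col20a1 and Col28a1, 6 of 16 and 6 of 11. Col6a6, Col23a1 and Col27a1 were lower in both. The share of all genes that passed in both is not given, so the size of this overlap is not read as a result.

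Cold raised 12 collagen genes in WT and lowered 3, beside 23.0% of all genes higher, 23.2% lower and 46.3% either. The median was 0.18, beside -0.03, and cold pools lay wholly above for 14 (27.6% of all genes) and wholly below for 5 (27.9%), 19 in all (55.4%). Library totals alone gave 5 higher and 5 lower, with a median of -0.03 beside -0.23 over all genes. In KO, cold raised 5 and lowered 2, beside 7.29%, 7.56% and 14.8%. Here the median was 0.08, beside -0.02, with cold pools wholly above for 9 (15.3% of all genes) and wholly below for 4 (17.4%), 13 in all (32.8%). Among the 9 was Col11a1, which met the count rule through the KO cold libraries alone, and the median includes it. These 2 comparisons share no library but come from the same fit and scaling. Col4a1, Col4a2, Col7a1 and Col12a1 rose in both, 4 of 12 and 4 of 5. The share of all genes that rose in both is not given, so the size of this overlap is not read as a result either. The difference between both cold responses, KO minus WT, was positive in 4 genes and negative in 7 by the same test, beside 10.6%, 12.9% and 23.5% of all genes, with a median of -0.35 beside 0.01. With library totals alone the split was 5 and 4, with a median of -0.12 beside 0.24 over all genes. Both medians include Col6a5 and Col11a1. Col4a3, Col6a3 and Col9a3 passed in none of the 5 comparisons.

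**Figure D2:**
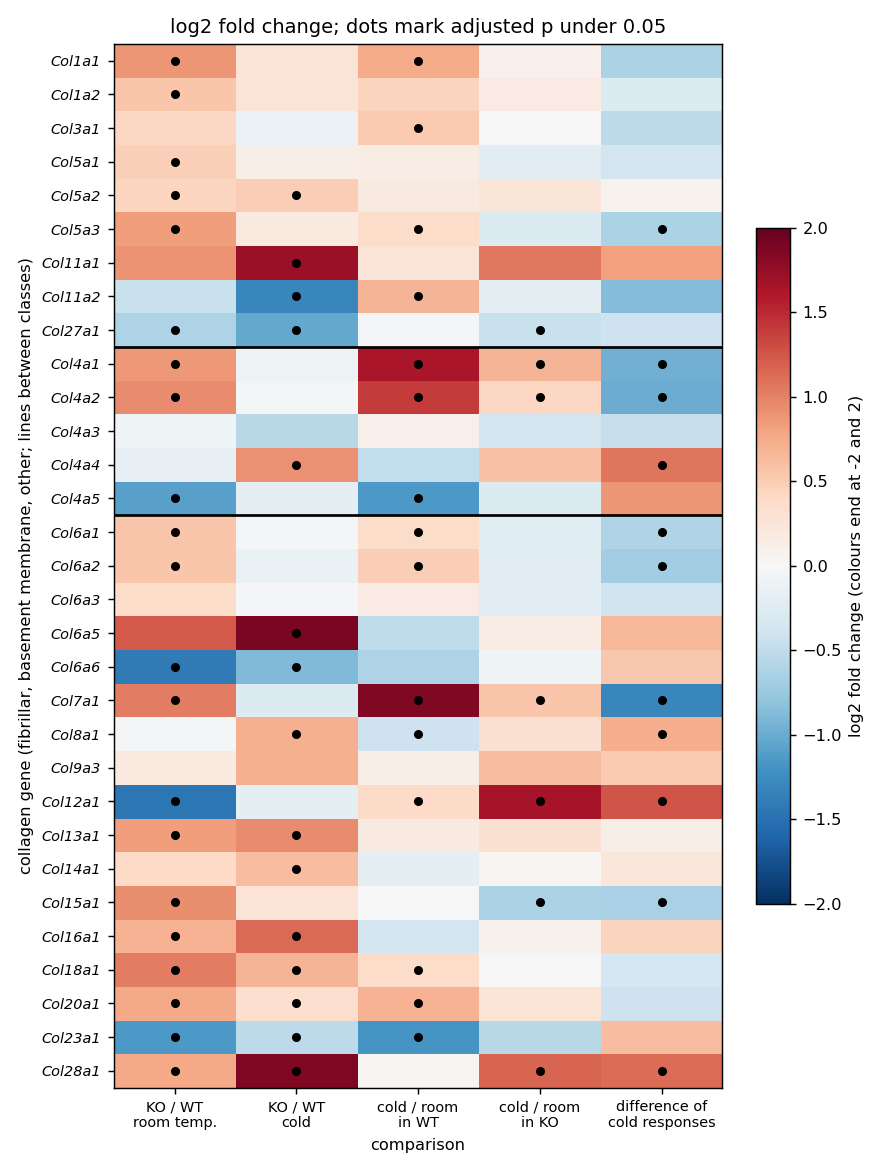
Log2 fold changes (colour) of the 31 collagen genes (rows, with lines between the fibrillar, basement membrane and other classes) in 5 comparisons (columns), where dots mark an adjusted p under 0.05 in edgeR's quasi-likelihood test on the TMM scale. The column for KO against WT at room temperature holds 16 dots on red and 5 on blue, and the column for cold in KO holds 5 and 2. In the second column library totals alone would give 22 red and 2 blue, a scaling that moves the median of all genes to 0.45. Dots of Col6a5 and Col11a1 there carry no weight, because both met the count rule through KO libraries alone.

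Among the basement membrane collagens, Col4a1 and Col4a2 rose with cold and stood higher in KO at room temperature, whereas Col4a5 fell with cold in WT and stood lower in KO. Col4a1 encodes the chain present 2 times in the most widespread type IV helix. Its levels were 457, 364 and 360 CPM in WT at room temperature, 613, 817 and 728 in KO at room temperature, 1307, 1265 and 1109.8 in WT in the cold and 1047, 1209 and 1191 in KO in the cold. Both cold groups lay above both room temperature groups, KO lay above WT at room temperature, and the genotypes overlapped in the cold. The log2 fold change was 0.87 ± 0.12 (SE) for KO against WT at room temperature (adjusted p = 3.3e-05), compared with -0.10 ± 0.12 in the cold (adjusted p = 0.52). Cold raised Col4a1 by 1.64 ± 0.12 in WT (adjusted p = 3.1e-08), compared with 0.68 ± 0.12 in KO (adjusted p = 0.0012), and these responses differed by -0.96 ± 0.17 (adjusted p = 0.00086).

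Col4a2, which encodes the partner chain in that helix, stood at 417, 303 and 299.6 CPM in WT at room temperature and at 576, 711 and 683 in KO, with no overlap. In the cold it reached 910.3, 962 and 811 CPM in WT and 791, 927 and 901 in KO, which overlapped. KO exceeded WT at room temperature by 0.95 ± 0.13 (adjusted p = 2.4e-05). The cold response was 1.40 ± 0.13 in WT (adjusted p = 2.9e-07), compared with 0.41 ± 0.13 in KO (adjusted p = 0.036), with a difference of -0.99 ± 0.18 (adjusted p = 0.001). The call in KO ended without KO room temperature pool 4 or 6, without KO cold pool 2 or 3, and without the 2 libraries richest in muscle markers (adjusted p up to 0.14). Under library totals alone, Col4a1 and Col4a2 passed as higher in KO in the cold, at 0.34 and 0.40. The per-kb ratio of Col4a1 to Col4a2 lay between 0.942 and 1.07 in the 6 room temperature pools and between 1.16 and 1.27 in the 6 cold pools, with no overlap.

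The chains of the other type IV networks were far less abundant per length, with Col4a5 at 0.633 and Col4a4 at 0.162 CPM per kb in WT at room temperature. Col4a5, a chain of the glomerular network, stood at 2.76, 4.98 and 5.01 CPM in WT at room temperature, 2.13, 1.87 and 2.05 in KO, 1.42, 2.27 and 2.09 in WT in the cold and 1.95, 1.55 and 1.51 in KO in the cold. The WT pools at room temperature were the highest and overlapped with no other group. KO was lower at room temperature by -1.08 ± 0.23 (adjusted p = 0.0015), and cold lowered it in WT by -1.15 ± 0.24 (adjusted p = 0.00074) with -0.27 ± 0.24 in KO (adjusted p = 0.48). The difference of 0.88 ± 0.34 between the responses did not pass (adjusted p = 0.068). Col4a4, which pairs with it, stood at 1.24, 1.23 and 1.19 CPM in WT in the cold and at 2.71, 2.14 and 2.0 in KO in the cold, with no overlap (0.91 ± 0.24, adjusted p = 0.0043). At room temperature it stood at 1.99, 1.76 and 1.42 CPM in WT and 1.09, 1.53 and 1.99 in KO, which overlapped. Its responses to cold differed by 1.07 ± 0.33 (adjusted p = 0.027), a call that ended in 6 of 20 alternative fits (adjusted p up to 0.080), 5 of them with 1 library left out: WT room temperature pool 2, KO room temperature pool 4, WT cold pool 1 or 2, or KO cold pool 1. Col4a3 lay between 0.860 and 1.77 CPM in the 12 pools.

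**Figure D3:**
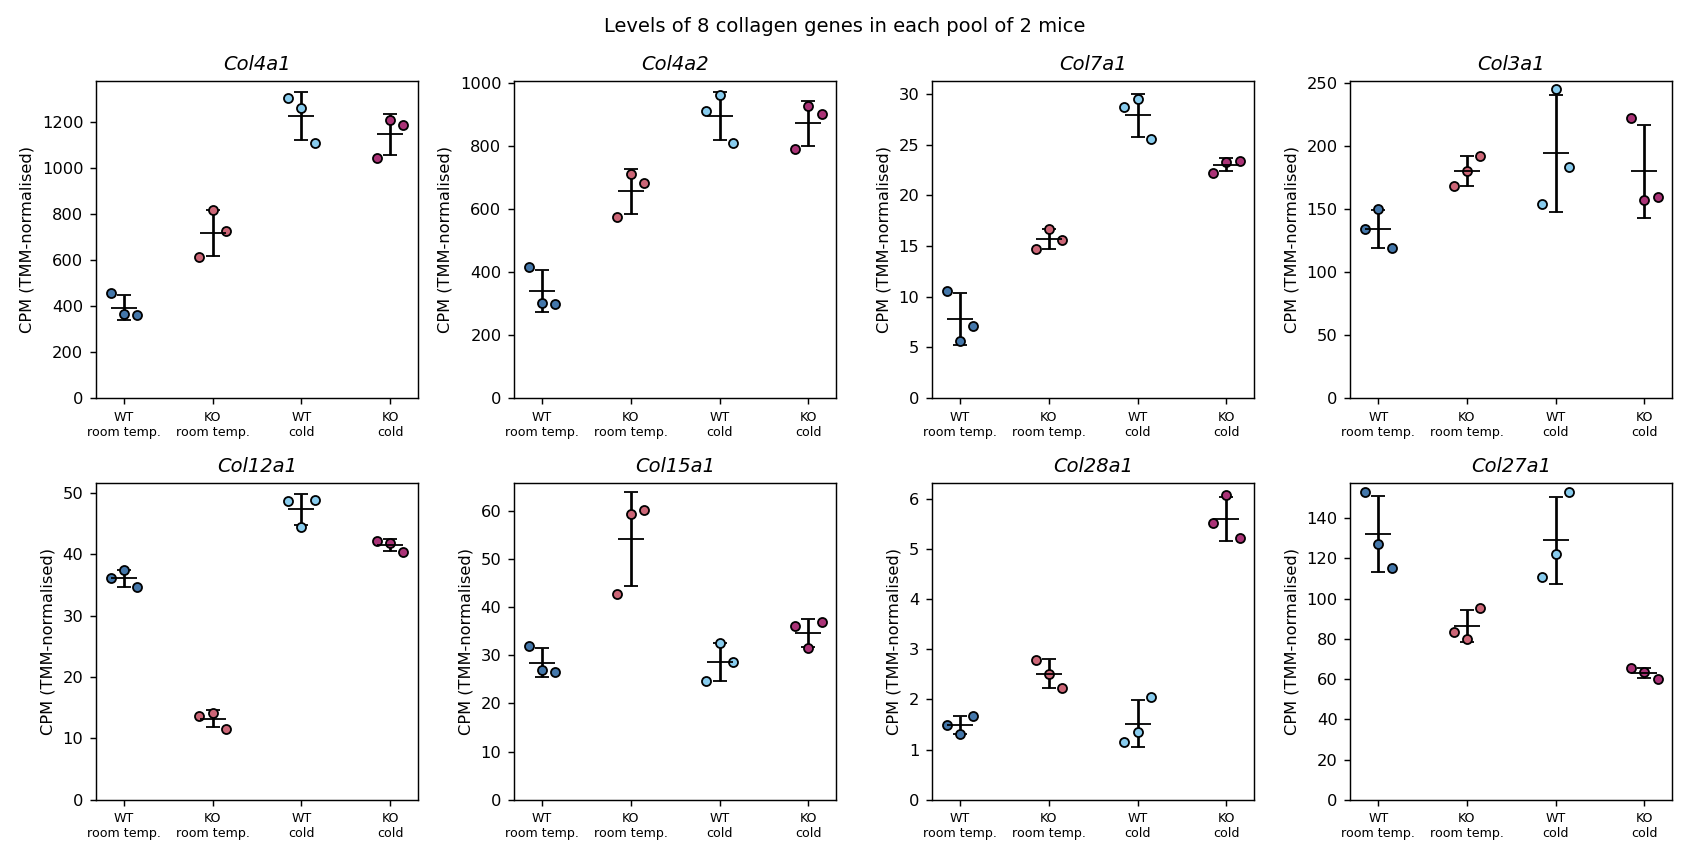
Levels in CPM on the TMM scale (y axes, each from 0) of 8 collagen genes in the 4 groups (x axes), with points for pools of 2 mice and whiskers for mean ± SD of 3 pools. Col4a1, Col4a2 and Col7a1 are lowest in WT at room temperature, Col12a1 is lowest in KO at room temperature at 11.6 to 14.2 CPM, and Col28a1 is highest in KO in the cold at 5.21 to 6.07 CPM.

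At room temperature most fibrillar collagens exceeded their WT level in KO. Of the 9, KO had 5 higher and 1 lower, with a median log2 fold change of 0.47, so 66.7% were called beside 40.4% of all genes. Without the 2 muscle-rich libraries 3 were higher and 1 lower, with a median of 0.48, and the share of all genes called in that fit is not given. In the cold 2 were higher and 2 lower, 44.4% beside 53.7%. The higher ones include Col11a1, which met the count rule through KO libraries alone, so its call carries no weight. Cold raised 4 in WT, 44.4% beside 46.3%, and in KO it lowered 1, 11.1% beside 14.8%, so these shares were near those of all genes. Col3a1, the chain of the fine reticular fibrils of soft tissue, stood at 134, 149.8 and 119 CPM in WT at room temperature, 168, 180.2 and 192 in KO at room temperature, 154, 245 and 183 in WT in the cold and 222, 157 and 159.7 in KO in the cold. The WT pools at room temperature were below all others, and the remaining groups overlapped. Its rise with cold in WT was 0.53 ± 0.17 (adjusted p = 0.021), and the genotypes did not differ past the test at room temperature (0.42 ± 0.17, adjusted p = 0.064). The rise ended with library totals alone, in the fit with a block for pool number, and without WT room temperature pool 1 or 3 or WT cold pool 2 (adjusted p up to 0.13).

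Col1a1 and Col1a2 encode the chains of type I collagen, the main fibre of skin, bone and tendon. Col1a1 stood at 33.0, 35.8 and 26.6 CPM in WT at room temperature, 65.1, 51.0 and 60.9 in KO at room temperature, 43.1, 70.3 and 45.6 in WT in the cold and 79.5, 56.9 and 52.7 in KO in the cold. WT at room temperature lay below all other pools, and the genotypes overlapped in the cold. Col1a1 was higher in KO at room temperature by 0.89 ± 0.22 (adjusted p = 0.0092) and rose with cold in WT by 0.74 ± 0.22 (adjusted p = 0.02). The first call ended without the 2 libraries richest in muscle markers (adjusted p = 0.050), the second without WT room temperature pool 3 and with library totals alone (adjusted p up to 0.069). Col1a2 stood at 49.5, 60.3 and 45.8 CPM in WT at room temperature and at 75.4, 75.6 and 76.6 in KO, with no overlap (0.55 ± 0.19, adjusted p = 0.042). The cold pools held 60.6, 88.4 and 61.9 CPM (WT) and 112, 74.7 and 69.4 CPM (KO), which overlapped. The call for Col1a2 ended in 7 of 21 alternatives (adjusted p up to 0.13), namely limma voom, without the 2 muscle-rich libraries, without WT room temperature pool 1 or 3 and without KO room temperature pool 4, 5 or 6.

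Col27a1, a fibrillar collagen best known from cartilage, was lower in KO at room temperature, where Col1a1 was higher. Its levels were 153, 127 and 115 CPM in WT at room temperature, 83.5, 80.0 and 95.2 in KO at room temperature, 111, 122 and 153 in WT in the cold and 65.4, 63.6 and 60.2 in KO in the cold. The WT groups overlapped each other and lay above both KO groups. KO was lower by -0.61 ± 0.12 at room temperature (adjusted p = 0.00075) and by -1.03 ± 0.12 in the cold (adjusted p = 3.8e-06). In KO it fell with cold by 0.45 on the log2 scale (SE 0.12, adjusted p = 0.017), a call that ended without the 2 libraries richest in muscle markers, without KO room temperature pool 6 and without KO cold pool 2 or 3 (adjusted p up to 0.10). The 8 listed markers of cartilage and bone were too low to be tested, summed to 0.182 to 0.709 CPM, and included Ucma and Ibsp at 0 in all libraries.

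The type XI chains nucleate fibrils in cartilage. Col11a2 stood at 7.08, 6.49 and 12.4 CPM in WT in the cold and at 2.93, 4.69 and 2.90 in KO in the cold, with no overlap (-1.30 ± 0.25, adjusted p = 0.00077). The room temperature pools held 6.33, 5.75 and 4.22 CPM in WT and 3.86, 3.69 and 4.40 in KO, which overlapped. Its rise with cold in WT, 0.68 ± 0.25, passed narrowly (adjusted p = 0.038) and was lost in 10 of 22 alternatives, with adjusted p up to 0.24, including the fits without WT room temperature pool 2 or 3, KO room temperature pool 4 or 5, or WT cold pool 3, the pool at 12.4 CPM. Col11a1 rests on few reads: 4, 6 and 1 counts in WT in the cold and 21, 22 and 11 in KO in the cold, or 0.15, 0.272 and 0.0372 CPM against 0.531, 0.597 and 0.339. Its room temperature pools held 4, 5 and 3 counts in WT and 8, 8 and 7 in KO. Those 3 cold KO libraries are the only ones in which Col11a1 reached 10 counts, so it only just met the count rule, through the group where it was highest, and no test is given for it. Col4a6, Col10a1 and Col19a1 fell just outside with 2 libraries each.

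Type V collagen, which sets the width of type I fibrils, was measured through Col5a1, Col5a2 and Col5a3. All 3 were higher in KO at room temperature, by 0.47 ± 0.12, 0.43 ± 0.10 and 0.83 ± 0.10 (adjusted p = 0.0048, 0.0027 and 6.9e-06), with no overlap of pools. Col5a3 went from 17.2 to 20.3 CPM in WT to 30.7 to 35.1 CPM in KO. In the cold Col5a2 was higher in KO (0.49 ± 0.10, adjusted p = 0.00055), whereas Col5a1 and Col5a3 overlapped between genotypes. Cold raised Col5a3 in WT by 0.36 ± 0.10 (adjusted p = 0.0064) with -0.28 ± 0.10 in KO (adjusted p = 0.06), and the responses differed by -0.64 ± 0.14 (adjusted p = 0.0034), which was lost with library totals alone (adjusted p = 0.061).

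Among the 17 other collagens KO had 9 higher and 3 lower at room temperature, 70.6% beside 40.4% of all genes. In the cold 8 were higher and 2 lower, 58.8% beside 53.7% of all genes. The higher ones include Col6a5, which met the count rule through KO libraries alone, so its call carries no weight. Col7a1, the collagen of the fibrils that anchor epithelial basement membranes to the tissue below, followed Col4a1 and Col4a2. It stood at 10.6, 5.66 and 7.08 CPM in WT at room temperature, 14.7, 16.7 and 15.6 in KO at room temperature, 28.7, 29.5 and 25.5 in WT in the cold and 22.2, 23.3 and 23.4 in KO in the cold. No group overlapped another. KO exceeded WT at room temperature by 1.02 ± 0.16 (adjusted p = 0.00021), and in the cold it was at -0.28 ± 0.15, which did not pass (adjusted p = 0.14). Cold raised it by 1.85 ± 0.16 in WT (adjusted p = 6.2e-07), compared with 0.55 ± 0.15 in KO (adjusted p = 0.026), and the responses differed by -1.30 ± 0.22 (adjusted p = 0.0011). The rise in KO ended without KO room temperature pool 4 or 6 and without KO cold pool 1, 2 or 3 (adjusted p up to 0.097). Markers of the epidermis were absent or low: Krt5, Krt14 and Dsg3 had no count in any library. The 6 listed keratinocyte markers summed to 1.12 to 2.31 CPM, with Krt10 at 0.885 to 2.27 CPM.

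Col12a1, a collagen that decorates type I fibrils, also rose with cold in both genotypes. Opposite to Col7a1 were its genotype difference at room temperature and the sign of the difference between its cold responses. Its levels were 36.2, 37.4 and 34.7 CPM in WT at room temperature, 13.7, 14.2 and 11.6 in KO at room temperature, 48.7, 44.5 and 48.8 in WT in the cold and 42.2, 41.9 and 40.4 in KO in the cold. KO pools at room temperature lay far below the rest, and no group overlapped another. KO was lower at room temperature by -1.45 ± 0.09 (adjusted p = 7.7e-09) but not past the test in the cold (-0.19 ± 0.08, adjusted p = 0.063). Cold raised it by 1.65 ± 0.09 in KO (adjusted p = 8.5e-09) and by 0.39 ± 0.08 in WT (adjusted p = 0.001), with a difference of 1.26 ± 0.12 (adjusted p = 5.5e-06). The rise in WT was lost with library totals alone (adjusted p = 0.18).

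Col28a1, a collagen close to the beaded filament type and known from peripheral nerve, was highest in KO in the cold. It stood at 1.5, 1.31 and 1.66 CPM in WT at room temperature, 2.79, 2.51 and 2.22 in KO at room temperature, 1.16, 1.36 and 2.05 in WT in the cold and 5.51, 6.07 and 5.21 in KO in the cold. KO pools exceeded WT pools at both temperatures, by 0.75 ± 0.21 (adjusted p = 0.0078) and 1.87 ± 0.20 (adjusted p = 1.7e-06). Cold raised it in KO by 1.16 ± 0.19 (adjusted p = 0.00072) with 0.04 ± 0.22 in WT (adjusted p = 0.9), a difference of 1.12 ± 0.29 (adjusted p = 0.01). Among the 8 Schwann cell markers, 4 were higher and 2 lower in KO in the cold (75% called). Of all genes, 25.9% were higher, 27.8% lower and 53.7% either. The markers summed to 193 to 205 CPM in KO and 194 to 210.3 CPM in WT in the cold, with no marker at 0. Their part in the result was not tested.

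The multiplexins Col15a1 and Col18a1 lie in the basement membrane zone of vessels and end in fragments that restrain vessel growth. Col15a1 stood at 31.9, 26.9 and 26.5 CPM in WT at room temperature, 42.8, 59.3 and 60.1 in KO at room temperature, 24.6, 32.6 and 28.6 in WT in the cold and 36.0, 31.4 and 36.8 in KO in the cold. Only the KO pools at room temperature stood apart from all others. KO exceeded WT at room temperature by 0.93 ± 0.13 (adjusted p = 7.3e-05), and in KO cold lowered it by 0.64 (SE 0.13, adjusted p = 0.0047) while WT was at 0.01 ± 0.13 (adjusted p = 0.96). The difference of -0.65 ± 0.19 (adjusted p = 0.021) was lost in 8 of 20 alternatives (adjusted p up to 0.11), namely library totals alone and the fits without the 2 libraries richest in muscle markers, without WT room temperature pool 2 or 3, KO room temperature pool 5 or 6, WT cold pool 2 or KO cold pool 2. Col18a1 stood at 9.97, 10.6 and 11.3 CPM in WT at room temperature and 20.9, 22.7 and 21.8 in KO, and at 14.3, 15.1 and 11.6 in WT in the cold and 23.0, 19.1 and 23.4 in KO. All KO pools lay above all WT pools, by 1.03 ± 0.11 at room temperature (adjusted p = 2.7e-06), compared with 0.68 ± 0.11 in the cold (adjusted p = 7.8e-05).

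Promoter windows of 3 of these genes are printed because they differ in how they responded to cold: Col7a1 rose in WT, Col28a1 rose in KO and Col15a1 fell in KO. RefSeq promoter sequences (GRCm38.p6) matched 25 of the 31 genes, in 27 windows, and the 250 bases before each start were searched on both strands for 5 short motifs. These were the CCAAT box, spelled CCAAT, the GC box, spelled GGGCGG, the TATA box, spelled TATAAA, the core of the hypoxia response element, spelled ACGTG, and part of the cAMP response element, spelled TGACG. The last pair can overlap in letters, and each was counted on its own. Sequences run 5′ to 3′ on the strand of the gene, and capitals mark matches to these motifs.
Col7a1 (chr9:108953336-108953585, + strand): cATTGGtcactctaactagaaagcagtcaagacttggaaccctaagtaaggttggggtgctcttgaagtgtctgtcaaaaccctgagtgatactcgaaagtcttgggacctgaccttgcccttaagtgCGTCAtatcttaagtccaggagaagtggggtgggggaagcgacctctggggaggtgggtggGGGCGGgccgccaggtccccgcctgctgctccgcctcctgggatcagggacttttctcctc
Col28a1 (chr6:8192618-8192867, - strand): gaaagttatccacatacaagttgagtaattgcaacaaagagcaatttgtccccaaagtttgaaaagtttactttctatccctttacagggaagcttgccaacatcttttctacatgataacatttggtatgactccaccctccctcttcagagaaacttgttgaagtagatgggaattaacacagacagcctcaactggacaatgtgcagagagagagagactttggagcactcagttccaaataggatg
Col15a1 (chr4:47207762-47208011, + strand): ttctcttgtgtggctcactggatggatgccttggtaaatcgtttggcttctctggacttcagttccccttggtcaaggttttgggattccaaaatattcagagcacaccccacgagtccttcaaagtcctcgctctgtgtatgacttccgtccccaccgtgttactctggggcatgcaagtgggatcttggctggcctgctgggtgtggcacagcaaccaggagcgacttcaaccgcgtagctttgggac
The Col7a1 window held a CCAAT box, a GC box and the TGACG letters, and the other two windows held none of the 5. Over all 32851 windows the shares were 33.8% for the CCAAT box, 32.7% for the GC box, 12.4% for the TATA box, 16.6% for the hypoxia core and 17.8% for the cAMP letters. Of the 27 collagen windows, 9 held the CCAAT box, 17 the GC box, 3 the TATA box, 5 the hypoxia core and 3 the cAMP letters. A match is a run of letters and not a site shown to be bound.

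Type VI collagen forms beaded filaments at the border of basement membrane and fibrils. Its main chains were of like level: Col6a1 stood at 43.9, 43.4 and 43.0 CPM in WT at room temperature, 58.5, 64.4 and 69.3 in KO at room temperature, 47.1, 66.0 and 54.9 in WT in the cold and 60.9, 51.6 and 50.7 in KO in the cold. Col6a2 was at 47.8, 45.3 and 42.5, at 59.2, 68.2 and 72.8, at 54.0, 72.1 and 65.0, and at 63.9, 52.3 and 57.3 CPM in the same order of groups. For both genes WT at room temperature was the lowest group and overlapped with none, and the genotypes overlapped in the cold. Each was higher in KO at room temperature by 0.56 ± 0.11 (adjusted p = 0.0007 and 0.00067), and cold raised them in WT by 0.37 ± 0.11 and 0.49 ± 0.11 (adjusted p = 0.011 and 0.0013). The responses of KO and WT differed by -0.60 ± 0.15 for Col6a1 (adjusted p = 0.0098) and -0.70 ± 0.15 for Col6a2 (adjusted p = 0.0038). The first of these was lost without the 2 libraries richest in muscle markers and with library totals alone (adjusted p up to 0.14), and the rise of Col6a1 in WT was lost without WT cold pool 2 and with library totals alone (adjusted p up to 0.29). Col6a3, the third chain, stood at 35.4, 36.5 and 40.0 CPM in WT at room temperature, 40.5, 54.7 and 49.9 in KO at room temperature, 35.1, 51.4 and 39.7 in WT in the cold and 49.4, 36.7 and 37.9 in KO in the cold, and passed no test (adjusted p = 0.064 for KO against WT at room temperature). Under library totals alone Col6a1, Col6a2 and Col6a3 passed as higher in KO in the cold, at 0.41, 0.31 and 0.43.

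The rarer type VI chains Col6a5 and Col6a6 lie side by side on chromosome 9. Col6a6 stood at 2.34, 1.74 and 1.47 CPM in WT at room temperature, 0.575, 0.699 and 0.783 in KO at room temperature, 0.974, 1.18 and 1.42 in WT in the cold and 0.379, 0.597 and 0.986 in KO in the cold. It was lower in KO at room temperature by -1.42 ± 0.30 (adjusted p = 0.0015), with no overlap, and in the cold by -0.88 ± 0.32 (adjusted p = 0.027), with overlap. The call in the cold was lost in 6 of 21 alternatives (adjusted p up to 0.20), 4 of them without WT cold pool 2 or 3 or KO cold pool 1 or 2. Col6a5 had 1, 0 and 5 counts in WT in the cold and 13, 10 and 10 in KO in the cold. At room temperature it had 6, 2 and 3 counts in WT and 12, 7 and 8 in KO. It reached 10 counts in 4 libraries, all of them KO, so the count rule chose it by the genotype where it was high, and no test is given for it.

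Col8a1, a short-chain network collagen of vessel walls, stood at 4.29, 5.95 and 5.88 CPM in WT at room temperature, 5.58, 5.59 and 4.76 in KO at room temperature, 4.09, 3.68 and 4.28 in WT in the cold and 5.89, 7.40 and 6.47 in KO in the cold. WT in the cold was lowest and KO in the cold overlapped only WT at room temperature. KO exceeded WT in the cold by 0.71 ± 0.15 (adjusted p = 0.001), and cold lowered it in WT by 0.42 (SE 0.16, adjusted p = 0.033), with a difference between responses of 0.73 ± 0.22 (adjusted p = 0.021). Both calls were lost without the 2 muscle-rich libraries, the fall in WT also without WT room temperature pool 2 or 3 or WT cold pool 1 or 2, and the difference without WT room temperature pool 2 or 3, KO room temperature pool 6, WT cold pool 2 or KO cold pool 2 (adjusted p up to 0.14 and 0.13). Col23a1, a collagen of the plasma membrane, stood at 4.52, 4.49 and 3.84 CPM in WT at room temperature, 2.24, 1.59 and 1.96 in KO at room temperature, 1.54, 1.91 and 2.23 in WT in the cold and 1.11, 1.27 and 1.57 in KO in the cold. WT at room temperature lay above all other pools. KO was lower there by -1.15 ± 0.20 (adjusted p = 0.00026), cold lowered it in WT by 1.18 (SE 0.20, adjusted p = 0.00015), and the call of -0.52 ± 0.21 in the cold (adjusted p = 0.047) was lost in 15 of 22 alternatives (adjusted p up to 0.73), among them the fits without WT room temperature pool 1, 2 or 3, KO room temperature pool 6, WT cold pool 2 or 3 and KO cold pool 1 or 2.

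The remaining members were Col9a3, Col13a1, Col14a1, Col16a1 and Col20a1. Col13a1, a transmembrane collagen best known from the neuromuscular junction, went from 3.21 to 5.34 CPM in WT to 7.06 to 9.57 in KO at room temperature (0.83 ± 0.18, adjusted p = 0.0017) and from 4.51 to 5.58 to 8.22 to 10.7 in the cold (0.95 ± 0.18, adjusted p = 0.00035). Col20a1 was higher in KO at room temperature (0.75 ± 0.13, adjusted p = 0.00027) and rose with cold in WT (0.69 ± 0.13, adjusted p = 0.00036). In the cold KO exceeded WT by 0.33 ± 0.13 (adjusted p = 0.035), a call lost with the block for pool number and without WT cold pool 1 or KO cold pool 1 or 2 (adjusted p up to 0.19). Col16a1 and Col14a1, which sit on fibril surfaces, were higher in KO in the cold by 1.14 ± 0.25 and 0.62 ± 0.17 (adjusted p = 0.0011 and 0.006). At room temperature Col16a1 passed at 0.69 ± 0.24 (adjusted p = 0.03), which ended without the 2 muscle-rich libraries, WT room temperature pool 2 or 3 or KO room temperature pool 4 or 6 (adjusted p up to 0.12). Col9a3 lay between 0.182 and 0.709 CPM.

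**Figure D4:**
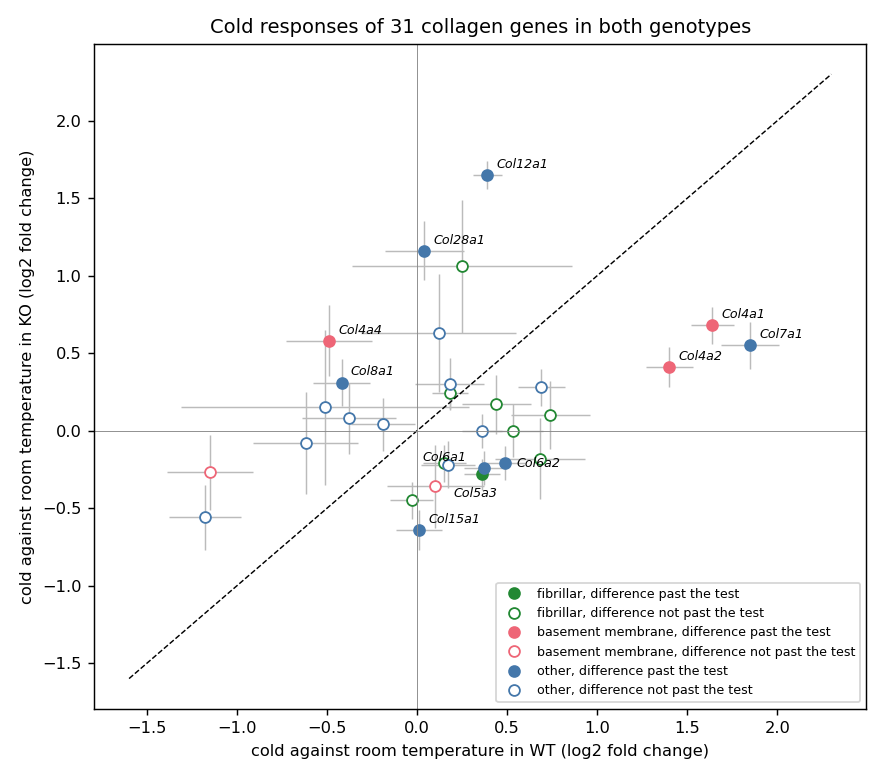
Log2 fold change of cold against room temperature in WT (x axis) and in KO (y axis) for the 31 collagen genes on the TMM scale, with SE bars, a dashed line of equal responses, colour for the class and filled points where the difference passed edgeR's test. Col4a1, Col4a2 and Col7a1 lie far right of the line at 1.64, 1.40 and 1.85 in WT, Col12a1 and Col28a1 lie above it at 1.65 and 1.16 in KO, and with library totals alone Col5a3, Col6a1 and Col15a1 would not be filled.

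For the pathway lists, each share of genes called in either direction is set beside that of all genes: 40.4% between genotypes at room temperature and 53.7% after cold exposure, 46.3% for the WT response and 14.8% for the KO response. The enzymes and chaperones that fold collagen chains were near these shares. Of 20 tested, KO had 7 higher and 3 lower at room temperature (50% called, median log2 fold change 0.13), 5 and 4 in the cold (45%, 0.06), 6 and 4 with cold in WT (50%, 0.05) and 3 and 1 with cold in KO (20%, 0.02). The difference between responses passed as negative in 4, 20% beside 23.5% of all genes. P4ha1, the catalytic subunit of prolyl 4-hydroxylase, stood at 24.5, 22.7 and 20.3 CPM in WT at room temperature, 32.5, 45 and 38.4 in KO at room temperature, 163, 165 and 127 in WT in the cold and 85.2, 94.4 and 77.2 in KO in the cold. No group overlapped another, and WT in the cold was highest. Cold raised P4ha1 by 2.75 ± 0.13 in WT (adjusted p = 1.3e-09), compared with 1.15 ± 0.13 in KO (adjusted p = 3.2e-05), a difference of -1.6 ± 0.18 (adjusted p = 4.2e-05). Its paralog P4ha2 rose by 1.34 ± 0.12 in WT (adjusted p = 3e-07), compared with 0.49 ± 0.12 in KO (adjusted p = 0.01), a difference of -0.85 ± 0.17 (adjusted p = 0.0022).

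Serpinh1, the chaperone HSP47 that binds the finished helix, stood at 114, 158 and 178 CPM in WT at room temperature, 147, 141 and 149.5 in KO at room temperature, 248, 218 and 211 in WT in the cold and 115, 132 and 111 in KO in the cold. WT in the cold lay above all other pools. Serpinh1 rose with cold in WT by 0.59 ± 0.13 (adjusted p = 0.0013) and was at -0.29 ± 0.13 in KO (adjusted p = 0.14), so that KO was lower in the cold by -0.92 ± 0.13 (adjusted p = 2.5e-05). Fkbp14, a prolyl isomerase of the same compartment, was lower in KO at both temperatures, by -1.05 ± 0.12 and -1.04 ± 0.12 (adjusted p = 4.6e-06 and 2.2e-06). P4hb, the shared beta subunit of prolyl 4-hydroxylase, was higher at both, by 0.51 ± 0.08 and 0.56 ± 0.08 (adjusted p = 8.8e-05 and 1.9e-05). The lysyl hydroxylase Plod2 rose with cold by 0.82 ± 0.15 in WT (adjusted p = 0.00034), compared with 0.92 ± 0.15 in KO (adjusted p = 0.00057).

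Among 9 genes of export from the endoplasmic reticulum, cold raised 6 in WT and lowered 1 (77.8% beside 46.3% of all genes, median 0.43), and raised 1 in KO (11.1% beside 14.8%, median 0.08). Between genotypes 1 was higher in KO at room temperature (11.1% beside 40.4%) and 2 were lower in the cold (22.2% beside 53.7%). Sec31a, a subunit of the outer COPII coat, went from a mean of 117 to 226 CPM with cold in WT (0.96 ± 0.09, adjusted p = 4.1e-07) and was lower in KO than in WT in the cold (-0.93 ± 0.09, adjusted p = 5.4e-07). Its responses differed by -1.11 ± 0.13 (adjusted p = 3.2e-05), as did those of Sar1b at -0.46 ± 0.14 (adjusted p = 0.021). Of 6 tested procollagen-cleaving genes, KO had 3 higher and 1 lower at room temperature (66.7% beside 40.4%) and 4 and 1 in the cold (83.3% beside 53.7%). Bmp1, the C-proteinase, was among the higher ones at both temperatures (0.57 ± 0.11 and 0.68 ± 0.12, adjusted p = 0.00087 and 0.00013).

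Of 7 cross-linking enzymes, KO had 2 higher and 2 lower at room temperature (57.1% beside 40.4%), and 3 and 1 in the cold (57.1% beside 53.7%). Lox, which oxidises lysines of collagen and elastin, stood at 27.8, 19.3 and 22.0 CPM in WT at room temperature, 12.5, 14.6 and 13 in KO at room temperature, 16.8, 14.2 and 15.9 in WT in the cold and 18.7, 15.8 and 16.2 in KO in the cold. WT at room temperature was highest and KO at room temperature overlapped only WT in the cold. KO was lower at room temperature by -0.78 ± 0.12 (adjusted p = 0.00012), Lox fell with cold in WT by 0.55 (SE 0.12, adjusted p = 0.0015), and the responses differed by 0.89 ± 0.17 (adjusted p = 0.0018). Pxdn, the peroxidase that cross-links type IV collagen, stood at 34.2, 53.8 and 57.9 CPM in WT at room temperature, 35.4, 34.2 and 34.1 in KO at room temperature, 16.1, 14.4 and 19.3 in WT in the cold and 32.3, 36.8 and 32.6 in KO in the cold. WT in the cold was far below the other groups. Pxdn fell with cold in WT by 1.55 (SE 0.17, adjusted p = 9e-06), and the responses differed by 1.52 ± 0.23 (adjusted p = 0.00073).

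Of 17 basement membrane partners tested, cold raised 5 in WT and lowered 3 (47.1% beside 46.3%, median -0.05). KO had 4 higher and 3 lower at room temperature (41.2% beside 40.4%, median 0.15) and 9 higher and 1 lower in the cold (58.8% beside 53.7%, median 0.35). Lama4, the laminin chain of vessel and fat basement membranes, stood at 74.1, 115 and 117 CPM in WT at room temperature, 59.5, 48.8 and 47.6 in KO at room temperature, 26.3, 27.3 and 33.1 in WT in the cold and 40.7, 42.0 and 37.4 in KO in the cold. No group overlapped another. Lama4 fell with cold in WT by 1.82 (SE 0.16, adjusted p = 1.9e-06), and the responses differed by 1.44 ± 0.22 (adjusted p = 0.00086). Lamb3, a laminin chain of epithelial anchoring sites, went from 36.4, 56.2 and 38.1 CPM in WT in the cold to 7.53, 7.08 and 10.5 in KO in the cold (-2.38 ± 0.21, adjusted p = 3.4e-06). Lamb1, the beta chain of the common laminins, was chosen after its values were seen. It stood at 243, 119 and 112 CPM in WT at room temperature, 192, 309 and 253 in KO at room temperature, 399, 384 and 331 in WT in the cold and 341, 386 and 366 in KO in the cold. The cold pools lay above all room temperature pools, and the genotypes overlapped at either temperature. Lamb1 rose with cold in WT by 1.23 ± 0.29 (adjusted p = 0.0077), and the value in KO was 0.54 ± 0.29 (adjusted p = 0.26). Nid1 and Lama5 were higher in KO at room temperature by 0.59 ± 0.09 and 0.70 ± 0.11 (adjusted p = 0.0001 and 7.3e-05).

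Of 16 collagen-binding matrix proteins, 8 were higher in KO at room temperature with 1 lower (56.2% beside 40.4%, median 0.65), and 12 with 1 lower in the cold (81.2% beside 53.7%, median 0.66). The lower one was Prelp, a small leucine-rich proteoglycan, at 357, 359 and 422 CPM in WT and 113, 118 and 113 in KO at room temperature, and at 201, 227 and 230.1 in WT and 46.3, 48.8 and 60.8 in KO in the cold. KO lay below WT at both temperatures, by -1.73 ± 0.11 and -2.08 ± 0.11 (adjusted p = 1e-08 and 1.6e-09). Bgn, a related proteoglycan, was higher by 0.82 ± 0.08 and 0.66 ± 0.08 (adjusted p = 9.2e-07 and 3.5e-06). Collagen breakdown genes were higher in 4 of 8 and lower in 1 at room temperature (62.5% beside 40.4%, median 0.76) and higher in 7 in the cold (87.5% beside 53.7%, median 0.72). Mmp14, a membrane collagenase, stood at 6.71, 6.23 and 6.73 CPM in WT and 18.1, 16.8 and 16.0 in KO at room temperature, and at 8.43, 9.03 and 8.38 in WT and 18.5, 17.4 and 18.9 in KO in the cold, higher by 1.37 ± 0.09 and 1.08 ± 0.09 (adjusted p = 3e-08 and 1.8e-07). Of 12 collagen receptors, KO had 6 higher and 3 lower at room temperature (75% beside 40.4%, median 0.49) and 7 higher in the cold (58.3% beside 53.7%, median 0.5). Cold lowered 6 and raised 3 in WT (75% beside 46.3%, median -0.43). Itga1, the integrin chain that binds type IV collagen, fell with cold in WT by 0.88 (SE 0.08, adjusted p = 4.7e-07), from 119.7 to 126 CPM down to 62.8 to 74.5, and the responses differed by 0.89 ± 0.12 (adjusted p = 0.00012).

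Summed markers of several cell types that could make collagen were higher in KO. The shares of all genes at room temperature were 19.3% higher and 40.4% called. At room temperature the 8 fibroblast markers summed to 186 to 205 CPM in WT and 241 to 299 in KO, with 4 higher by edgeR at 0.05. The 9 markers of pericytes and smooth muscle summed to 598 to 657 CPM in WT and 745 to 839.5 in KO, with 7 higher and 1 lower. The 8 endothelial markers summed to 495 to 601 CPM in WT and 727 to 733 in KO, with 6 higher. The 8 macrophage markers summed to 68.2 to 93.4 CPM in WT and 229 to 294 in KO, with all 8 higher. Without the 2 muscle-rich libraries the higher calls were 3 for fibroblast, 5 for pericyte and smooth muscle, 3 for endothelial and 7 for macrophage markers. The share of all genes called in that fit is not given, so these counts are not set against the first ones. The median log2 fold changes went from 0.57 to 0.68 (fibroblast), 0.5 to 0.43 (pericyte and smooth muscle), 0.36 to 0.27 (endothelial) and 1.4 to 1.31 (macrophage). No marker of these 4 lists was at 0 in all libraries. For each of these lists the sums in WT and KO did not overlap, at room temperature or in the cold.

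The same lists were read with cold in WT, where 46.3% of all genes were called. Fibroblast markers summed to 198 to 209 CPM with 1 of 8 higher, pericyte and smooth muscle markers stood at 533 to 549 with 3 higher and 3 lower, endothelial markers stood at 635 to 653 with 2 higher and 2 lower, and macrophage markers 101 to 103 with 3 higher. Brown adipocyte markers summed to 11039 to 13586 CPM in WT at room temperature, 7467 to 8678 in KO at room temperature, 19931 to 22909 in WT in the cold and 7234 to 7983 in KO in the cold. With cold in WT 3 of the 8 were higher and 1 lower (median 0.05), and most of the change in the sum lay in Ucp1, the uncoupling protein of brown fat, whose mean went from 7305 to 16089 CPM. Adipoq, the adipokine adiponectin, fell from a mean of 749.6 to 501 CPM (adjusted p = 2.5e-05). The 15 skeletal muscle markers had 1 lower in each of the 4 comparisons of groups (6.67% called). All genes had 40.4% and 53.7% between genotypes, 46.3% with cold in WT and 14.8% in KO. The median log2 fold changes of these markers were 0.01 and 1.91 between genotypes at room temperature and in the cold, and -3.3 and -1.36 with cold in WT and KO. Their sums ran from 168 to 1068 CPM within WT at room temperature, so few calls do not mean equal levels. Of the 4 tendon markers, 1 was high enough to be tested. The part of any of these cell types in the collagen results was not tested.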

How the data were processed

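RNA was measured in 12 libraries, 1 per pool of 2 mice, in 4 groups taken from the labels. The deposited values are raw counts of reads per Ensembl gene with no scaling. STAR, HTSeq and build GRCm38 are named in the submitters' processing notes, with versions not given in the sources used here. A reverse strand setting is named in the deposited counts' file names only. The 5 summary lines per library were left out; reads with several alignments, 26.6 to 30.2% of each file's total, lie in no gene. Symbols and exon lengths came from GENCODE M21, which held 53274 of 53379 IDs.

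In R 4.3.3, edgeR 4.0.16 was run with filterByExpr by group (15208 genes kept, all 31 collagens among them), TMM factors (0.798 to 1.18) and 1 mean per group over all 12 libraries. Each p is that of edgeR's quasi-likelihood test, adjusted by Benjamini-Hochberg over all genes, threshold 0.05. The standard error is the log2 fold change over the square root of F. The common biological coefficient of variation was 13.6%. The fit was tested on simulated data. The members and lists were chosen with earlier results of these data known. Named with all pools were the 4 most abundant genes per class and up to 3 per direction and comparison of largest change; from each list, up to 3 of smallest p, plus Serpinh1, Lox and P4ha1; fewer are printed here. Alternatives were median-ratio size factors, library totals alone, other filters, DESeq2 1.42.0, limma 3.58.1 voom, only the libraries compared, no mitochondrial genes, a replicate block, no muscle-rich libraries and each library left out.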

Additional observations from a re-analysis of the deposited data

Results flagged for a closer look

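For 11 collagen genes the response to cold differed between KO and WT by a test of the difference itself, edgeR's interaction of genotype and cold on the TMM scale. The KO response minus the WT response, on the log2 scale, was -1.30 for Col7a1, -0.99 for Col4a2, -0.96 for Col4a1, -0.70 for Col6a2, -0.65 for Col15a1, -0.64 for Col5a3 and -0.60 for Col6a1. It was 1.26 for Col12a1, 1.12 for Col28a1, 1.07 for Col4a4 and 0.73 for Col8a1. Col4a4, Col6a1, Col8a1, Col15a1 and Col5a3 were the 5 whose call ended in at least 1 alternative.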

How the results depend on the processing

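Library totals alone, in place of TMM factors, moved the most values. For KO against WT in the cold it gave 22 collagen genes higher and 2 lower, and it turned the sign of Col4a1 to 0.34, Col4a2 to 0.40, Col6a1 to 0.41, Col6a2 to 0.31 and Col6a3 to 0.43, each from a value below 0 that had not passed. For cold in WT it gave 5 higher and 5 lower, and for the difference between responses 4 negative. The limma voom fit called 8 lower for KO against WT in the cold, 8 higher and 7 lower for cold in KO, and 11 negative differences. The strict filter left 2 lower for KO against WT in the cold, and leaving out the muscle-rich libraries left 1 lower for cold in KO. With 1 library left out, KO against WT in the cold had 2 to 4 lower, cold in KO 3 to 5 higher and 1 to 3 lower, and the difference 2 to 5 positive. Shares of all genes called in these alternative fits are not given, so no count above is set against them. The cause was not tested.

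Pool numbers are shared by WT room temperature, WT cold and KO cold. For each pool, the deviation of every gene from its group mean was taken on the log scale. These deviations, not the levels themselves, correlated between same-numbered pools at -0.279, -0.095 and -0.155 in the cold. Within WT the values were 0.055, -0.183 and 0.227. With so few pools per group, these values cannot decide whether pools of the same number belong together. The replicate block left 2 lower for KO against WT in the cold and lost Col3a1 and Col11a2 with cold in WT. No paired analysis was possible for the other comparisons because KO room temperature pools carry numbers that no other group shares.

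The share of all collagens in the cold, KO over WT, was 1.19 without mitochondrial counts instead of 1.29. Without the most abundant member of each class, the ratio of cold to room temperature was 1.52 in WT instead of 1.87 and 1.16 in KO instead of 1.31. By the longest transcript the median level was 1.46, 2.24 and 2.55 CPM per kb in WT at room temperature, WT in the cold and KO in the cold. Over single genes and settings, 2983 values kept their side of the threshold and their sign, 109 lost a call and 84 gained one with the sign kept, 74 that passed in neither fit changed sign, and 5 changed sign and passed. Genes under about 1 CPM, such as Col11a1 and Col6a5, rest on a few reads per library.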
